A study of Mus musculus with 4 samples.

Results

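The trypsinogen genes *Prss1*, *Prss2*, *Prss3*, *Try4*, *Try5* and *Try10* and the trypsin inhibitor gene *Spink3* were followed in RNA-seq of E18.5 mouse pancreas, in which REST had been removed from the pancreatic epithelium. They were taken by symbol from a table of 24391 genes. The 6 trypsinogens were found under their own symbols, and *Spink3* under *Spink1*, the symbol to which RefSeq gives *Spink3* as a synonym, so that all 7 members were found and all 7 passed the filter on low counts. The table holds 2 libraries of control pancreas, labelled Pdx1Cre RESTwt, and 2 of *Rest* pKO pancreas, labelled Pdx1Cre RESTLoxP/LoxP. All 4 libraries come from embryos of a mixed strain with C57BL/6, carry the Cre transgene, and were sampled at E18.5 without further treatment. *Pdx1*-Cre acts in the epithelium, where it removes part of *Rest*, and spares the mesenchyme, so *Rest* counted over the whole organ does not measure the deletion.

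Trypsinogens are the inactive forms of trypsin, made by acinar cells of the exocrine pancreas and stored in zymogen granules. In the gut, enteropeptidase cuts a short peptide from their N terminus, and the trypsin so formed activates the other pancreatic zymogens, chymotrypsinogens, proelastases and procarboxypeptidases among them. SPINK3, the mouse counterpart of human SPINK1, is made by the same cells and blocks trypsin that becomes active too early, before it can injure the gland.

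Counts per library summed to 16936759 and 18644088 in the controls, against 20738162 and 24134100 in *Rest* pKO. Over the whole organ *Rest* gave 14.2 and 15.7 CPM (counts scaled to library size, with TMM factors) in control 1 and control 2, against 12.1 and 9.16 CPM in *Rest* pKO 1 and 2, a log2 difference of −0.49 that did not pass edgeR (adjusted p = 0.593). *Xist* and Y-linked counts showed 1 female and 1 male embryo in each genotype, the females being control replicate 1 and *Rest* pKO replicate 2, so the replicates are different embryos. The acinar identity of the tissue was clear from *Cpa1*, *Cpb1*, *Cel*, *Ctrb1* and *Cela1*, at between 8403 and 150762 CPM, and from the acinar transcription factors *Ptf1a*, *Rbpjl* and *Bhlha15*. *Pnlip*, pancreatic lipase, stayed below 10 CPM. *Pnliprp1*, a further acinar gene, was at 99882 and 86547 CPM in the controls, against 107291 and 114669 CPM in *Rest* pKO. It lay higher in both *Rest* pKO libraries, as 21.5% of all genes tested do (log2 fold change 0.25, adjusted p = 0.762, edgeR). Amylase was counted mainly under *Amy2b*, at 951 and 850 CPM in the controls, then 785 and 537 CPM in *Rest* pKO. *Amy2a5* stayed below 10 CPM and 3 further *Amy2a* genes had no count. These are near-identical copies, and unique mapping leaves out the reads they share, but its part in these low counts was not tested. The genes of the acinar list were summed with the trypsinogens, *Spink3* and the further trypsin-like genes *2210010C04Rik*, *Gm5771* and *Gm10334*. Together they took 44.5% and 42.8% of control counts, against 44.1% and 51.0% in *Rest* pKO 1 and 2.

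The 6 trypsinogens lie within 223 kb of chromosome 6 (NCBI build 37, mm9), in the order *Try4* (chr6:41252268-41255531, plus strand), *Try5* (chr6:41261232-41266840, minus), *Try10* (chr6:41304104-41307943, plus), *Prss3* (chr6:41323794-41327677, minus), *Prss1* (chr6:41408931-41413785, plus) and *Prss2* (chr6:41471786-41475078, plus). Each has 5 exons and a coding sequence of 741 bases. The cut made by enteropeptidase follows a run of 4 aspartates and a lysine, encoded in exon 2 of each of the 6 genes. The 39 coding bases around that cut, bases 46 to 84 of the coding sequence, are shown because they are the part on which activation turns, with capitals for each base that differs from *Prss2*.
Prss2: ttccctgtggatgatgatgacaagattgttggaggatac
Prss1: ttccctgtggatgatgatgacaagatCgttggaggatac
Prss3: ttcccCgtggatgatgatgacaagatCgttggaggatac
Try4: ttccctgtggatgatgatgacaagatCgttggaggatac
Try5: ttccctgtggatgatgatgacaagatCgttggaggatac
Try10: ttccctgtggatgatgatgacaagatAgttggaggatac
These windows differ from that of *Prss2* (chr6:41472821-41472859) by 1 base in *Prss1*, *Try4*, *Try5* and *Try10* and by 2 in *Prss3*. The windows of *Prss1*, *Try4* and *Try5* are the same sequence, so these bases alone do not tell those genes apart. The reads are longer than the windows, so their assignment also rests on bases outside them.

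Across the whole coding sequence 127 of 741 positions (17.1%) vary among the 6 genes. The 60-base stretch with the most such positions, 23 in all, is bases 283 to 342 in exon 3. It is shown because it holds the most variable positions, again with capitals for bases that differ from *Prss2* (chr6:41473936-41473995).
Prss2: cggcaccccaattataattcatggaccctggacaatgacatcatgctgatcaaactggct
Prss1: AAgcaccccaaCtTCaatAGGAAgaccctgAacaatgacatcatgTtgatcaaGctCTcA
Prss3: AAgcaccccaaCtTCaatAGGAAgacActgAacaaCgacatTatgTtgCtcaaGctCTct
Try4: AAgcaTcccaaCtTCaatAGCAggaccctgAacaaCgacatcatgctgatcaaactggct
Try5: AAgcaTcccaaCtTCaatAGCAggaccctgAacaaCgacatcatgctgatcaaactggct
Try10: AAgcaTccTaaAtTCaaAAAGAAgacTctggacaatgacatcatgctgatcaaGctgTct
*Try4* and *Try5* are the same in this stretch as well. Over the coding sequence, identity between pairs of the 6 members ran from 88.7% (*Prss2* and *Prss3*) to 97.4% (*Try4* and *Try5*).

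The locus holds further trypsin-like genes that the table counts under other symbols. *Gm10334* (chr6:41392213-41396096) is 99.1% identical to *Prss3* over the coding sequence, *Gm5771* (chr6:41342355-41347255) is 97.6% identical to *Prss1*, and *2210010C04Rik* (chr6:40980267-40985508) is 74.5% to 75.9% identical to the other trypsinogens. *2210010C04Rik* has 5 aspartates before the lysine and *Gm5771* has 3. Only uniquely mapped reads had been counted, so the share of each transcript that is its own was computed as the share of its 100-base stretches, the read length, found in no other annotated protein-coding transcript. This share was 100% for *Prss2*, for *2210010C04Rik* and for *Spink3*, and 93.8% for *Try10*. It was 78.2% for *Prss1*, 74.4% for *Try5*, 69.8% for *Try4* and 53.6% for *Prss3*, which shared 46.4% of its stretches with *Gm10334*. Counts of *Prss3*, *Try4*, *Try5* and *Prss1* can therefore lose shared reads, while *Prss2* and *Spink3* share no such stretch with another annotated protein-coding transcript. Other genome sequence, mismatches and the second read of a pair were not considered, so the loss of reads was not measured.

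**Figure D1:**
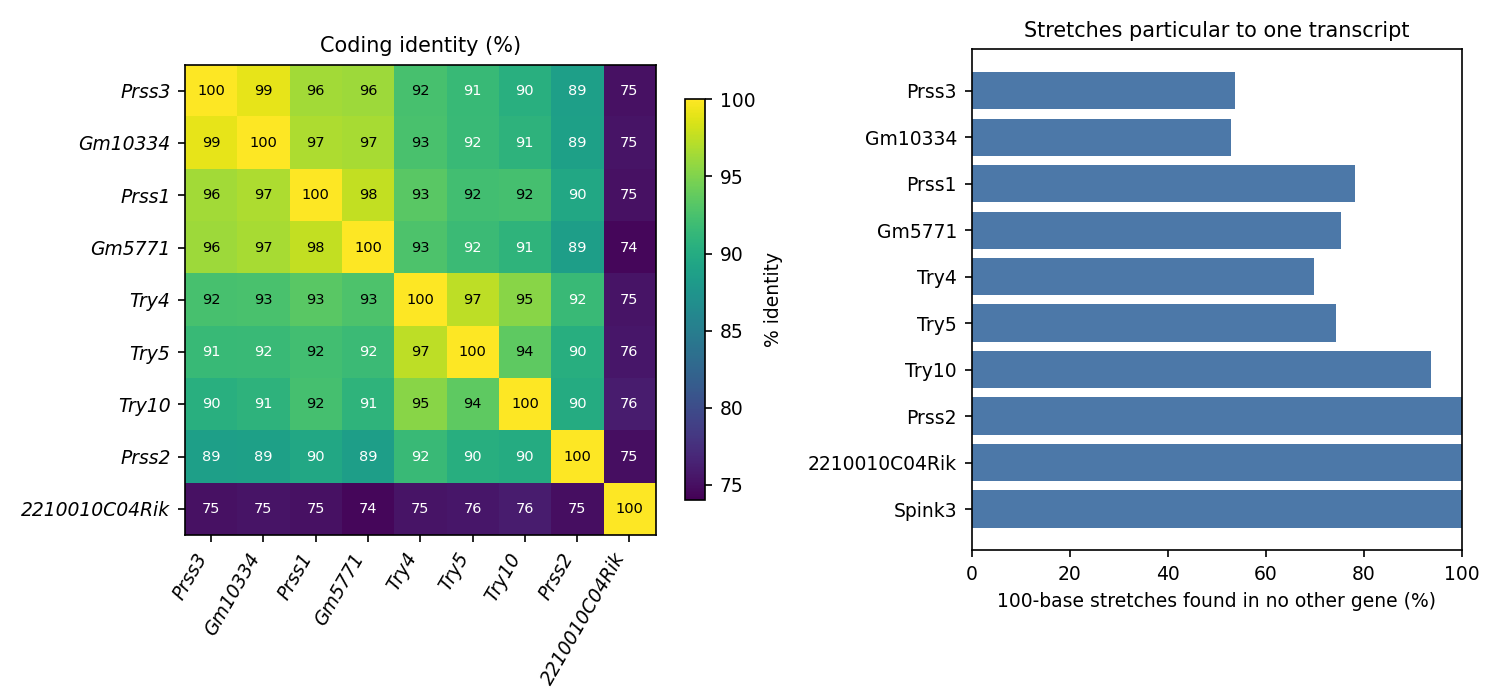
Left, coding identity in percent between the 6 trypsinogen members and 3 further genes of the locus; right, percent of each transcript's 100-base stretches found in no other annotated protein-coding transcript. *Prss3* and *Gm10334* share most (99.1% identity, 53.6% and 52.9% of stretches their own), while *Prss2* and *Spink3* are at 100%.

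Upstream sequence was at hand for 4 of the 6 members. The 150 bases before the RefSeq start (GRCm38.p6) are shown because these genes are among the most abundant RNAs of the gland. Capitals mark CACCTG, an E-box, and TGGGAA, the core of the other element of the site bound by the acinar factor PTF1, each searched on both strands.
Prss1: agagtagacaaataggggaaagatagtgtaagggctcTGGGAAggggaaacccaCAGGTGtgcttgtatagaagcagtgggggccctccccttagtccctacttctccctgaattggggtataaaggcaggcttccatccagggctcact
Try4: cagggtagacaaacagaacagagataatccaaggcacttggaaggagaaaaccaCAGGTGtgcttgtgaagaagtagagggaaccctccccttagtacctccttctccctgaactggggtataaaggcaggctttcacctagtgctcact
Prss2: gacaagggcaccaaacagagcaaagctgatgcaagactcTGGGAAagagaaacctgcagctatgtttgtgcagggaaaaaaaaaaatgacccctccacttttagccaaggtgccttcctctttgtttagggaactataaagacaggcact
Prss3: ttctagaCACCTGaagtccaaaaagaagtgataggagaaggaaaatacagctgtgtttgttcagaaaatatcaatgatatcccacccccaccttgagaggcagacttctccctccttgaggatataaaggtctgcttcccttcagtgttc
They lie at chr6:41458780-41458929, chr6:41302122-41302271 and chr6:41521626-41521775 on the plus strand and at chr6:41377614-41377763 on the minus strand. Within 250 bases before the start, 100 more than printed, CACCTG was found in all 4 of these promoters and in 17.2% of all 32851 promoters. TGGGAA was found in *Prss1* and *Prss2* and in 21.6% of all promoters, and both motifs in *Prss1* and *Prss2* and in 3.91% of all promoters. The spacing of the motifs was not part of the search. From the start, TGGGAA lay at −113 in *Prss1*, with CACCTG on either strand at −183 and −96. In *Prss2* TGGGAA lay at −111 and CACCTG at −169, farther from each other than the nearer pair of *Prss1*. TATAAA, searched on the gene's strand only, stood between 16 and 31 bases before the start in all 4, and anywhere in the 250 bases in 7.59% of all promoters. No binding was measured here.

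The trypsinogens differed widely in abundance. *Spink3*, the inhibitor, is a 4-exon gene on chromosome 18, away from the trypsinogen cluster. Levels between genes are given as CPM per kb of transcript. *Prss2* stood highest, at 13526 ± 2396 CPM per kb in controls and 14054 ± 4394 in *Rest* pKO (SD, n = 2 each, as for all means here). *Try5* followed at 11104 ± 2631 and 11829 ± 5717, and lay below *Prss2* in each library although their ranges overlapped. *Prss3* and *Prss1* came next and could not be ordered, at 4353 ± 1341 and 4335 ± 1495 in controls and 4357 ± 1452 and 4201 ± 296 in *Rest* pKO. *Spink3* was at 2126 ± 173 and 2204 ± 672. *Try10* was at 1162 ± 134 and 1426 ± 434, and its highest library, at 1733, reached the lowest of *Spink3*, at 1729. *Try4* was lowest, at 770 ± 298 and 797 ± 210, below *Try10* in each library. These levels rest on uniquely mapped reads only and were not corrected for the share of each transcript that is its own. That share was 100% for *Prss2* but 74.4% for *Try5*, and 93.8% for *Try10* but 69.8% for *Try4*. The order given is thus one of uniquely mapped reads. Genes with close levels, such as *Prss2* and *Try5*, may stand in another order in RNA.

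**Figure D2:**
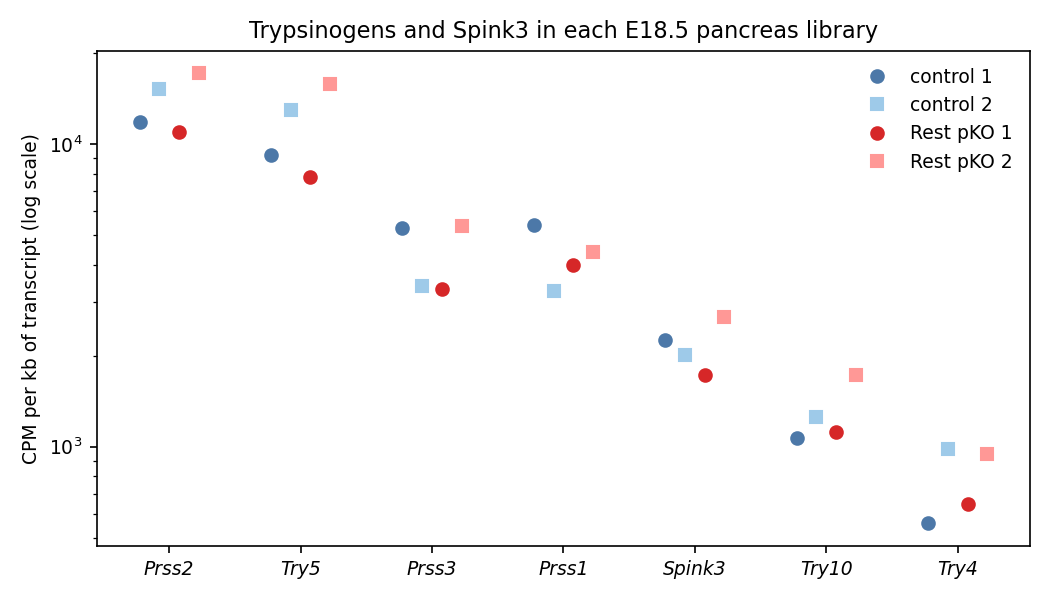
CPM per kb of transcript (log scale) of the 6 trypsinogens and *Spink3*, each point 1 library, 2 controls (blue) and 2 *Rest* pKO (red). Genes are ordered by their control mean, from *Prss2* (13526) to *Try4* (770), and in every gene the colours overlap.

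No trypsinogen differed between genotypes beyond the spread of its replicates, and neither did *Spink3*. *Prss2* was at 9643 and 12404 CPM in control 1 and control 2, against 8922 and 13986 CPM in *Rest* pKO 1 and *Rest* pKO 2. *Try5* was at 7404 and 10385 CPM in the controls, against 6237 and 12713 CPM in *Rest* pKO. In both genes *Rest* pKO held the lowest and the highest library, with the controls between.

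*Prss1* was at 4340 and 2639 CPM in control 1 and control 2, against 3214 and 3551 CPM in *Rest* pKO 1 and *Rest* pKO 2. *Prss3* was at 4458 and 2864 CPM in the controls, against 2801 and 4528 CPM in *Rest* pKO. In *Prss1* the controls enclosed both *Rest* pKO libraries, and in *Prss3* each genotype had 1 high and 1 low library.

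*Try4* was at 448 and 786 CPM in the controls, against 519 and 757 CPM in *Rest* pKO. *Try10* was at 950 and 1118 CPM in the controls, against 996 and 1542 CPM in *Rest* pKO. *Spink3* was at 949 and 846 CPM in the controls, against 730 and 1131 CPM in *Rest* pKO. The genotypes overlapped in each of the 3, and *Try10* came nearest to a separation, with 1 *Rest* pKO library above both controls and the other between them.

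By edgeR's quasi-likelihood test, with Benjamini-Hochberg adjustment over the 14550 genes tested, none of the 7 members was called in either direction at an adjusted p under 0.05. Over all genes the same rule called 0.0% higher and 0.0275% lower, 4 genes, so a count of 0 among 7 does not set the members apart. At an unadjusted p under 0.05, 0 members and 8.87% of all genes passed, 3.26% higher and 5.61% lower. DESeq2 called 0 members, against 0.182% of all genes higher and 0.533% lower (0.716% together). The paper, with DESeq2 at the same threshold, reported more genes in each direction at this age than were called here. Few calls here thus do not mean few changes. limma-voom called 0 members and 0.0206% of genes, and edgeR with sex as a term 0 members and 1.7% (0.412% higher and 1.29% lower). The groups overlapped in all 7 members, while among all genes tested the *Rest* pKO pair stood clear above the controls in 21.5%, clear below in 21.2% and overlapped them in 57.3%. The median log2 fold change was 0.05 over the members and −0.00 over all genes tested.

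The intervals give the range of changes that the 4 libraries leave possible. The log2 fold change of *Prss2* was 0.06 (95% interval −0.65 to 0.76) and that of *Spink3* 0.05 (−0.56 to 0.66). *Try10* had the largest, 0.30 (−0.33 to 0.92, where edgeR gave an adjusted p of 0.735 and DESeq2 of 0.935), and *Prss1* alone lay below 0, at −0.05 (−0.72 to 0.63). *Prss3* stood at 0.00 (−0.76 to 0.77), *Try4* at 0.05 (−0.69 to 0.79) and *Try5* at 0.09 (−0.78 to 0.96). As folds, the interval of *Try5* was the widest, from 0.584 to 1.94, and that of *Spink3* ran from 0.679 to 1.58. Depth was not the limit, since the lowest member count was 7519, with a counting error of 1.15%. Fewer acinar cells and less RNA per acinar cell cannot be told apart in whole organ.

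**Figure D3:**
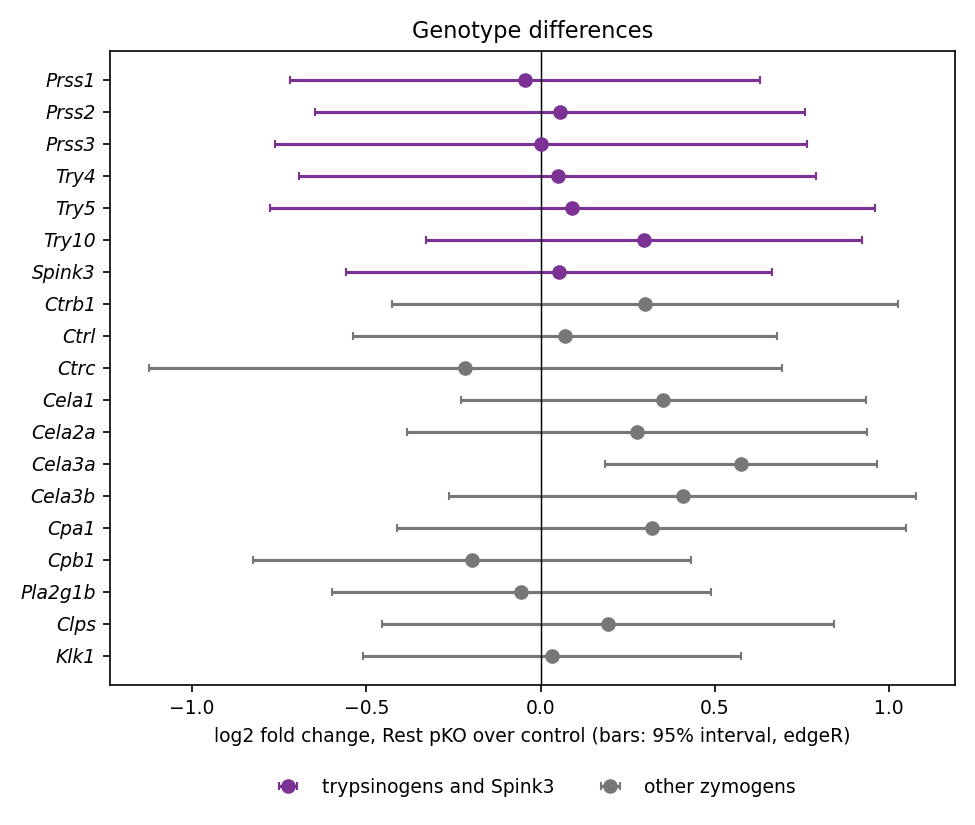
Log2 fold change, *Rest* pKO over control, of the 7 members (purple) and the other zymogen genes named in the text (grey), with 95% intervals from edgeR. All 7 member intervals include 0, and the widest, of *Try5*, runs from −0.78 to 0.96.

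The 6 trypsinogens were then summed, since a sum depends less on how reads are split among copies. Together they reached 27243 and 30195 CPM in the controls, against 22689 and 37076 CPM in *Rest* pKO 1 and *Rest* pKO 2, which is 2.70% and 3.21% and then 2.36% and 3.37% of all counts. The *Rest* pKO libraries enclosed the controls. The mean log2 difference was 0.02 (exact permutation test over libraries, two-sided, p = 1.0, where 2 against 2 cannot give less than 0.333). *Rest* pKO replicate 2, which held the largest acinar share, was above *Rest* pKO replicate 1 in all 7 members, by 1.10-fold for *Prss1* to 2.04-fold for *Try5*, and was the highest of the 4 libraries in 5 of them. The part of acinar share in this spread was not tested. With *2210010C04Rik*, *Gm5771* and *Gm10334* added, the sum was 44550 and 44117 CPM in the controls, against 38439 and 55128 CPM in *Rest* pKO. In this wider sum, chosen after seeing the data, the controls lay close to each other and the *Rest* pKO libraries stayed apart. The part of shared reads in this was not tested.

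The balance of zymogen and inhibitor does not depend on library scaling. For each *Spink3* count there were 28.7 and 35.7 counts of the 6 trypsinogens in the controls, against 31.1 and 32.8 in *Rest* pKO. The controls enclosed both *Rest* pKO libraries, and the mean log2 difference of *Spink3* over trypsinogens was 0.00 (exact permutation, two-sided, p = 1.0). Against the 13 other zymogens, *Spink3* was lower in the *Rest* pKO pair with no overlap, by a mean log2 difference of −0.19 (exact permutation, two-sided, p = 0.333, the smallest it can give). The 6 trypsinogens against the same zymogens overlapped between genotypes (log2 difference −0.20, exact permutation, two-sided, p = 0.667), with 9.30 and 7.67 zymogen counts for each trypsinogen count in the controls, against 10.3 and 9.13 in *Rest* pKO. With 9 trypsinogen genes in the sum, chosen after seeing the data, the groups did not overlap (log2 difference −0.16, exact permutation, two-sided, p = 0.333).

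Within the trypsinogen sum the copies did not keep a fixed proportion, even between replicates. *Prss2* made up 35.4% and 41.1% of the 6 in the controls, against 39.3% and 37.7% in *Rest* pKO, and *Try5* 27.2% and 34.4% and then 27.5% and 34.3%. *Prss1* took 15.9% and 8.74% in the controls, against 14.2% and 9.58% in *Rest* pKO. *Prss3* took 16.4% and 9.48%, then 12.3% and 12.2%. The genotypes overlapped in these 4 shares, with means of 12.3% and 11.9% for *Prss1* and of 12.9% and 12.3% for *Prss3*. *Try10* was the one member whose share did not overlap, at 3.49% and 3.70% in the controls, against 4.39% and 4.16% in *Rest* pKO. Its CPM did overlap. By CPM, 21.5% of all genes tested stood clear above and 21.2% clear below, so a share without overlap does not set *Try10* apart. With 2 libraries each, such a share cannot reach a p under 0.333 by exact permutation.

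**Figure D4:**
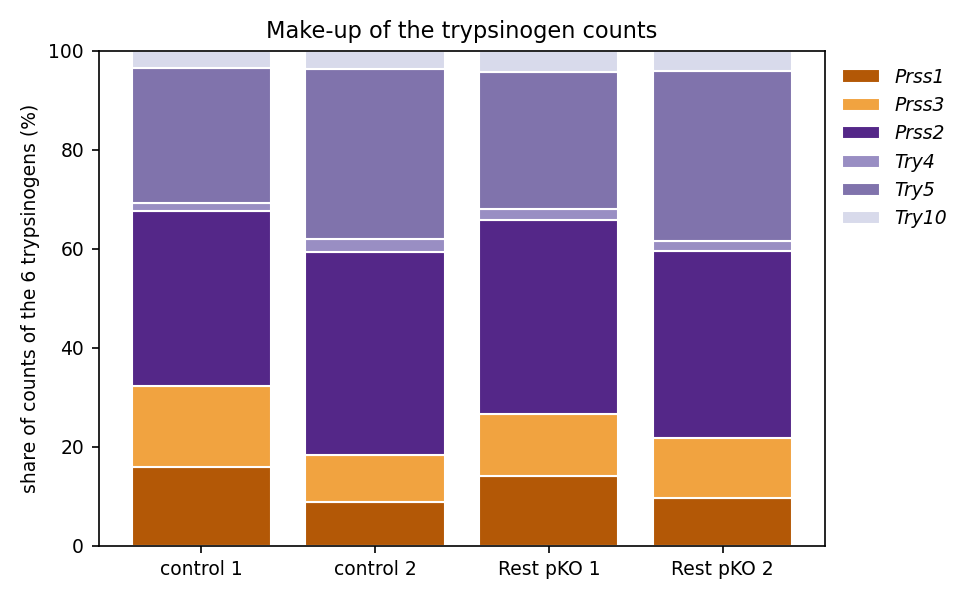
Share of each gene in the summed counts of the 6 trypsinogens, in percent, 1 bar for each library. *Prss1* and *Prss3* together (orange) run from 18.2% in control replicate 2 to 32.3% in control replicate 1, with both *Rest* pKO libraries between.

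*Prss1* and *Prss3* were lower in control replicate 2 than in control replicate 1, and *Prss2*, *Try4*, *Try5* and *Try10* were higher. *Prss1* in replicate 2 was 0.608 of its CPM in replicate 1 and *Prss3* 0.642, while *Try4* was 1.76-fold, *Try5* 1.40-fold, *Prss2* 1.29-fold and *Try10* 1.18-fold higher. *Gm5771*, at 2619 and 1287 CPM, and *Gm10334*, at 2741 and 1463 CPM, were lower there with *Prss1* and *Prss3*, to which they are 96.2% to 99.1% identical. The genes with the closest coding sequence thus differed in the same direction between the controls, a grouping that was noticed in these values and is given with no test. *Spink3* (0.891) and *2210010C04Rik* (11946 and 11172 CPM) changed little between the same libraries.

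Between *Rest* pKO replicates 1 and 2 the split was not the same. All 6 trypsinogens were higher in replicate 2, *Prss3* by 1.62-fold, as was *Gm10334*, at 1242 and 2065 CPM, while *Gm5771* was at 2096 and 2121 CPM. The count ratio of *Try5* to *Prss3* was 1.66 and 3.63 in the controls, against 2.23 and 2.81 in *Rest* pKO, and that of *Prss2* to *Prss1* was 2.22 and 4.70, then 2.78 and 3.94. Replicates thus differed in these ratios by up to 2.18-fold, far above the counting error. The embryos were of a mixed strain, and the part of their alleles at the locus in these ratios was not tested.

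**Figure D5:**
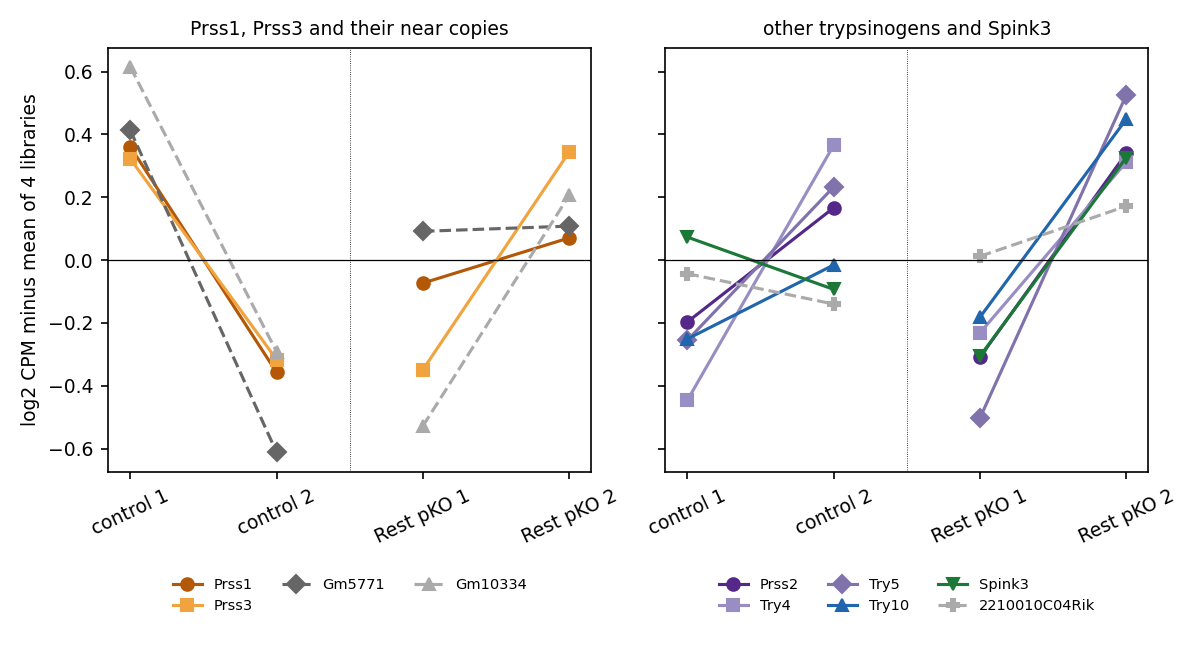
Log2 CPM minus the mean of the 4 libraries, lines joining the libraries of 1 genotype, for *Prss1*, *Prss3* and the near copies *Gm5771* and *Gm10334* (left) and for the other trypsinogens and *Spink3* (right); dashed lines are genes of the locus outside the 7 members. All 4 genes on the left are lower in control 2 than in control 1, while *Prss2*, *Try4*, *Try5* and *Try10* are higher.

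The zymogens that trypsin activates, fixed as a list of 13 genes, gave 0 calls in either direction by edgeR and by DESeq2. By edgeR 1 gene was at an unadjusted p under 0.05, where 8.87% of all genes are. Of the 13, 10 had a log2 fold change above 0 and 3 below 0, with a median of 0.19, while 49.5% of all genes tested lay above 0. The *Rest* pKO pair stood clear above the controls in 3 of them (21.5% of all genes do) and below in 0. *Ctrb1*, chymotrypsinogen B and the most abundant of the list, was at 98037 and 101026 CPM in the controls, against 94284 and 150762 CPM in the *Rest* pKO pair (log2 fold change 0.30, 95% interval −0.43 to 1.03). *Cela1*, *Cela3a* and *Cela3b*, proelastases, were the 3 that did not overlap, at 0.35, 0.57 and 0.41 on the log2 scale (edgeR, adjusted p of 0.681, 0.436 and 0.679). *Cela2a*, a further proelastase, stood at 0.28 and *Ctrl*, a chymotrypsin-like enzyme, at 0.07. *Cpa1* and *Cpb1*, procarboxypeptidases, were at 0.32 and −0.20. *Clps*, procolipase, was at 0.19, *Klk1*, a kallikrein, at 0.03, and *Pla2g1b*, the pancreatic phospholipase A2, at −0.06.

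Genes that activate, degrade, sense or inhibit trypsin were listed as 16, of which 15 passed the filter on low counts. None was called by edgeR or by DESeq2, and 1 of 15 was at an unadjusted p under 0.05, where 8.87% of all genes are. Of the 15, 3 lay above 0 and 12 below, with a median of −0.28, while 49.5% of all genes tested lay above and 50.5% below. Among the 12 are the 5 *Serpina1* genes, *Pzp* and *Itih4*, all highest in control replicate 1. *Ctrc*, chymotrypsin C, which degrades trypsinogen and also stands among the 13 zymogens, was at 84.5 and 97.4 CPM in the controls, against 43.6 and 113 CPM in the *Rest* pKO pair (log2 fold change −0.22, adjusted p = 0.862, edgeR). *Ctsb*, cathepsin B, which can activate trypsinogen inside the cell, was at 332 and 323 CPM, then 286 and 390 CPM. *Ctsl*, cathepsin L, which inactivates trypsinogen, was at 413 and 382 CPM in the controls, against 254 and 276 CPM in *Rest* pKO, with no overlap (log2 difference −0.58, where edgeR gave an adjusted p of 0.472 and DESeq2 of 0.243). *Ctsd*, cathepsin D, overlapped, at 0.13. *Serpini2*, a serine protease inhibitor of the exocrine pancreas, was at 1254 and 812 CPM in the controls, against 843 and 412 CPM in the *Rest* pKO pair (log2 fold change −0.72, adjusted p = 0.626 from edgeR).

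The gene left out by the filter was *Tmprss15*, which encodes enteropeptidase, with 0 and 1 counts in the controls, against 3 and 0 in *Rest* pKO. The 5 *Serpina1* genes, plasma inhibitors made by the liver, lay between 1.49 and 5.89 CPM in control replicate 1 and between 0.101 and 0.706 CPM in control replicate 2. In *Rest* pKO replicates 1 and 2 they lay between 0.742 and 3.01 CPM and between 0.364 and 1.37 CPM. *Pzp* and *Itih4*, a broad protease inhibitor and a plasma protein, were also highest in control replicate 1, at 12.3 and 4.88 CPM. The 5 markers of liver, which include *Serpina1a* itself, were all detected in every library. Their sum was 640 and 130 CPM in the controls, against 258 and 270 CPM in *Rest* pKO. It was highest in the same library, but its *Rest* pKO values were close to each other. The part of liver in these values was not tested. *Tmprss15*, the *Serpina1* genes, *Pzp* and *Itih4* were named after their values were seen.

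Of the other members of the SPINK family, 11 were in the table, 6 had no count, and *Spink2* and *Spink4* passed the filter. *Spink2* was at 0.952 and 0.656 CPM in the controls, against 1.16 and 1.55 CPM in *Rest* pKO, and *Spink4* at 2.02 and 1.51 CPM, then 2.69 and 2.64 CPM. Both lay higher in both *Rest* pKO libraries, as 21.5% of all genes tested do, on few counts (13 to 34 for *Spink2*), at log2 fold changes of 0.76 and 0.59 that did not pass (edgeR, adjusted p of 0.653 for *Spink2* and 0.652 for *Spink4*). *Spink3* thus held nearly all counts of the family. Of 8 other trypsin-like genes of the locus in the table, 5 were tested and none was called. *2210010C04Rik* was at 12412 and 13866 CPM in *Rest* pKO, above both controls (log2 fold change 0.18, adjusted p = 0.806, edgeR), *Gm10334* stood at −0.35, *Gm5771* at 0.11, and *Gm2663* at −0.36, between 2.60 and 10.2 CPM.

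The genes whose pattern over the 4 libraries was nearest to that of the summed trypsinogens were sought among 9194 tested genes with a mean of at least 10 CPM, by the mean absolute difference in centred log2 CPM. They were *Mrpl52* (0.0171), *Hpn* (0.0212), *S1pr2* (0.0266), *Tmem205* (0.0303) and *Rnpepl1* (0.0329), none of them an acinar enzyme. Nearest to *Spink3* were *Timm10b* (0.0166), *Selm* (0.0171), *Hadh* (0.0175), *Anxa2* (0.0188) and then *Hist1h1c*. With 4 libraries and so many genes such closeness is a description.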

How the data were processed

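RNA-seq of E18.5 pancreas was analysed in 2 control and 2 *Rest* pKO libraries, grouped by their labels. Although the methods describe RNA of 3 pancreas for either genotype, the labels and table used here hold 2 libraries of each, and every n, SD and p rests on these. The deposited table gives raw counts for each gene, as whole numbers. The authors aligned 100-bp paired-end reads with STAR to the genome they call NCBI36/mm9, kept uniquely mapped reads, and counted them on UCSC mm9 genes with featureCounts, version 1.5 according to the processing notes of the submitters. Whether strand was used, and whether pairs or reads were counted, is not given in the sources used here. Unique mapping removes reads that near-identical trypsinogen copies share.

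Counts were tested with edgeR 4.0.16 in R 4.3.3 (filterByExpr, TMM, glmQLFit, glmQLFTest, genotype as the only term) with Benjamini-Hochberg adjustment over 14550 genes. Standard errors are the log2 fold change divided by the square root of F, and 95% intervals use the test's degrees of freedom. CPM use TMM-scaled library sizes. Sums and ratios were compared by exact permutation over libraries. The replicates differed by more than sampling noise (chi-square per degree of freedom 23.2 and 64.9, for genes of 20 or more counts in sum). The p-values of edgeR set the genotype difference against a spread between embryos that is estimated with information from all genes. Those of the permutation tests rest only on rearranging the libraries. DESeq2 1.42.0, limma 3.58.1 (voom), other size factors and filters, a replicate block, sex as a term and leaving out each library were alternatives. The fits were run on simulated data with a fixed dispersion and planted changes larger than any seen in the members. This checks the fits and not their power for small changes. Positions, transcript lengths and transcripts came from GENCODE M1 (NCBI build 37), and promoters from RefSeq (GRCm38.p6). Coding identity is from global alignment.

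The members, lists and tests were chosen with earlier results of these data known. *Spink1*, listed among other SPINK genes, was moved to the members as the synonym of *Spink3*. Named were all members and other zymogens, up to 4 genes of each other list with the highest mean CPM, and the 5 nearest patterns to each of the summed trypsinogens and *Spink3*. Acinar markers and amylase genes were named besides these, whatever their CPM. The value of 1 of the other zymogens is not reported here, and counts and sums over that list include it.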

Additional observations from a re-analysis of the deposited data

How the results depend on the processing

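Of 56 refits of the 7 members on all 4 libraries (8 alternatives each), 53 kept direction and call. The other 3 were of *Prss3*, whose log2 fold change of 0.00 became −0.0091 with limma-voom, −0.0048 with the replicate block and −0.0048 with sex as a term. No refit called a member, and the lowest adjusted p was 0.725, or 0.157 with a library left out. Leaving out each library moved log2 fold changes from −0.36 to 0.35 for *Prss1*, −0.30 to 0.35 for *Prss2*, −0.38 to 0.35 for *Prss3*, −0.31 to 0.51 for *Try4*, −0.51 to 0.52 for *Try5*, −0.049 to 0.58 for *Try10* and −0.29 to 0.34 for *Spink3*, so the direction of every member rests on single libraries. The summed trypsinogens ranged from −0.34 to 0.37 in this way, *Spink3* over trypsinogens from −0.15 to 0.16, and trypsinogens over other zymogens from −0.34 to −0.06. As a share of all counts the trypsinogen sum differed by −0.062. *Spink3* differed by −0.010 against the trypsinogen with the most counts alone, by −0.19 against the other zymogens, and by −0.034 against 9 trypsinogens, the last chosen after seeing the data. Over all genes, DESeq2 called 26 higher and 76 lower and sex as a term 60 and 187. Leaving out a library gave 1 to 59 higher and 0 to 455 lower, and 0 to 2 lower among the listed zymogen and control genes, *Pzp* and *Itih4* without control replicate 2. The replicate numbers did not pair the libraries (correlation of deviations 0.0478), and the replicate block called 0 genes higher and 4 lower, the same counts as without it. For sums and ratios the block averages the differences between same-numbered libraries. With 2 against 2 this equals the unblocked difference by construction, so it is no check on them. The values are 0.02 for the summed trypsinogens, 0.00 for *Spink3* over trypsinogens and −0.20 for trypsinogens over other zymogens.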

Other observations

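*Prss3* gave close pairs of values by the sex of the embryo. It was at 4458 and 4528 CPM in the 2 libraries with high *Xist* counts (32596 and 12433, against 9 and 17 in the others) and at 2864 and 2801 CPM in the 2 with high Y-linked counts (3416 and 4004, against 0 and 1), 1.59-fold higher in the females. *Gm10334*, its near copy, was at 2741 and 2065 CPM in the females and at 1463 and 1242 CPM in the males, 1.78-fold higher. *Prss1*, *Gm5771* and *Spink3* also lay higher in both females, by 1.35-, 1.40- and 1.32-fold, while *Prss2*, *Try4*, *Try5*, *Try10* and *2210010C04Rik* overlapped. Such a clear split was found, over all genes, with females higher in 10.9% and males higher in 11.7%. None of these 10 genes passed as a term for sex in the fit with genotype, a coefficient examined after this pattern was seen, where *Prss3* had an adjusted p of 0.414 and *Gm10334* of 0.129 (edgeR). Sex and any other difference between these particular embryos cannot be told apart with 1 embryo of each sex per genotype.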
